A study of Mus musculus with 6 samples.

Results

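Scleraxis (Scx), the E-protein genes Tcf3, Tcf4 and Tcf12 and the inhibitor genes Id1, Id2, Id3 and Id4 were followed in valve regions of embryonic mouse hearts with and without Scx. The 8 genes were chosen by name, for their place in 1 network of transcription factors. All 8 were found among the 18810 Ensembl genes of the deposited table, 1 of them Scx, 3 of them E-protein genes and 4 of them Id genes.

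Scx is a basic helix-loop-helix (bHLH) transcription factor of tendon progenitors and of heart valves that are being remodelled. Like other tissue-restricted bHLH factors, it binds DNA at short motifs called E-boxes, as a heterodimer with a broadly expressed E-protein. Id proteins have the helix-loop-helix but lack the basic region that contacts DNA, so that they pair with E-proteins and hold them away from factors such as Scx.

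The study asked how the transcriptome of the remodelling valve differs without Scx. At embryonic day 15.5, the atrioventricular canal region with its mitral and tricuspid valves, and the aortic valve, was taken from 3 Scx-/- embryos and 3 Scx+/+ littermates of the C57BL/6 strain. By the methods little myocardium was taken along, and the cells were not sorted. Total RNA from each of the 6 embryos gave 1 library, and no Cre driver, transgene or treatment is named for either genotype. How many litters the embryos came from is not given in the sources used here, so that p-values measure the spread between these 6 libraries.

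Values are RPKM, reads per kilobase of exon scaled to the mapped reads of a library, so that levels of different genes can be set side by side. Whole reads recovered from RPKM and exon length put the depth between 46429971 reads, in Scx+/+ replicate 2, and 68570991 reads, in Scx+/+ replicate 3. Every member had a mean of at least 1 RPKM, and 0 of the 8 had a library at the common low value that stands for few or no reads in the table. The fewest reads behind any member value were 126, for Id4, and the most were 7987, for Tcf4.

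Scx+/+ replicate 2 stood apart from the other libraries. In Scx+/+ replicate 2, 1061 of the 13827 genes that average 1 RPKM or more lay over 2-fold from their mean over the 6 libraries, against 410 to 512 in the other libraries. Scx-/- replicate 3 did not stand apart by this count, with 437 such genes, but its deviations from the mean of its genotype followed those of Scx+/+ replicate 2 more closely than in any other pair of libraries across the genotypes (r = 0.32 across the 13827 genes, which are not independent replicates). Scx+/+ replicate 2 and Scx-/- replicate 2 had female expression, with Xist at 12.7 and 21.7 RPKM, and the other 4 libraries had male expression. Fold changes of the members are given below with and without Scx-/- replicate 3 and Scx+/+ replicate 2.

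The labelled tissue was checked against marker genes. Of 8 markers of valve mesenchyme, all 8 were in the table, and the most abundant, Vim, Postn and Vcan, were at 421 to 595, 161 to 387 and 21.2 to 44.7 RPKM. All 10 markers of cardiomyocytes were present as well, the most abundant of them above every mesenchyme marker, with Myl2 at 5910 to 11600 RPKM, Tnnt2 at 3540 to 6690 RPKM and Actc1 at 2010 to 3140 RPKM, so that myocardium was part of every library. Of 8 markers of cartilage and tendon cells, only Comp and Col9a1 were among the rows of the table, at 0.0862 to 0.941 and 0.515 to 2.2 RPKM, and the tendon marker Tnmd was not. In such mixed tissue, fewer cells of a type and less RNA per cell cannot be told apart.

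Scx itself was well above most genes of the table. It is listed as ENSMUSG00000034161, on the plus strand of mm9 chromosome 15 between 76287868 and 76289898. Scx was at 33.6, 18.6 and 82.9 RPKM in Scx-/- replicates 1 to 3 and at 29.5, 58.3 and 26.0 RPKM in Scx+/+ replicates 1 to 3. These stand for 1413 to 5628 reads a library. The highest and the lowest library were both Scx-/-, and all 3 Scx+/+ libraries lay between them. The mean ± SD of 3 libraries was 45.0 ± 33.7 RPKM in Scx-/- against 37.9 ± 17.7 RPKM in Scx+/+, and by its mean over the 6 libraries Scx was above 90.0% of the genes of the table.

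Reads in the exons of Scx were therefore counted in libraries labelled Scx-/-, and the gene-level value does not check the genotype labels. The gene has 2 exons, and the study assessed the null allele in these samples through exon 1. It reported lower exon 1 expression in Scx-/- than in controls, a measurement of its own that is not used here. Exon 1 runs from 76287868 to 76288616, holds 585 coding bases, which are 94.2% of the coding sequence, and makes up 65.9% of the 1136 bases of exon. Exon 2 runs from 76289512 to 76289898 and holds 36 coding bases, or 5.8%. The table gives no value for either exon alone, and reads were not assigned to exons here. The libraries are named below by their labels.

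Scx lies inside an intron of Bop1, a ribosome biogenesis gene on the opposite strand from 76283426 to 76307699, and shares 0 exon bases with it. Bop1 shares 43 exon bases with Heatr7a on the plus strand. A strand for the counting is not given in the sources used here. Bop1 was at 7.30, 9.32 and 15.6 RPKM in Scx-/- replicates 1 to 3 and at 10.7, 14.7 and 10.7 RPKM in Scx+/+ replicates 1 to 3. As for Scx, Scx-/- replicate 3 and Scx+/+ replicate 2 were each the highest of their genotype, over a smaller range, with a highest value 2.14 times the lowest against 4.47 times for Scx. The log2 fold change of Bop1 was -0.22 (95% interval -0.87 to 0.43), with -0.52 without Scx-/- replicate 3, -0.07 without Scx+/+ replicate 2, -0.37 without both and 0.02 without Scx-/- replicate 1.

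Of the E-protein genes, Tcf12 was the most abundant in each library and made up 57.8% to 64.7% of their summed RPKM. Tcf12, which encodes HEB (ENSMUSG00000032228, chromosome 9 from 71692059 to 71959626), was at 22.0, 23.0 and 14.8 RPKM in Scx-/- replicates 1 to 3 and at 21.1, 14.8 and 18.1 RPKM in Scx+/+ replicates 1 to 3. Scx-/- replicate 3 and Scx+/+ replicate 2 were each the lowest of their genotype, at the opposite end to Scx, and the genotypes overlapped. Another gene, Rpl15-ps2, lies in an intron of Tcf12 and shares 0 exon bases with it.

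Tcf4, which encodes E2-2 (ENSMUSG00000053477, chromosome 18 from 69503800 to 69847621), was at 8.57, 8.78 and 8.30 RPKM in Scx-/- replicates 1 to 3 and at 10.9, 7.73 and 9.26 RPKM in Scx+/+ replicates 1 to 3. It was the steadiest member, with a highest value 1.41 times the lowest, and the Scx-/- libraries lay inside the range of the Scx+/+ libraries. With 12250 bases of exon it also had the most reads of the 8 genes, 4395 to 7987 per library.

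Tcf3, which encodes the splice forms E12 and E47 (ENSMUSG00000020167, chromosome 10 from 79872259 to 79896392), was at 5.35, 3.80 and 2.53 RPKM in Scx-/- replicates 1 to 3 and at 4.31, 2.04 and 3.23 RPKM in Scx+/+ replicates 1 to 3. Scx-/- replicate 1 was highest and Scx+/+ replicate 2 lowest, and the other libraries of both genotypes lay between them. The splice forms were not separated here.

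Among the Id genes, Id2 was the highest in 5 of the 6 libraries and Id4 the lowest in every library. The 250 bases before the start of a gene were searched for the E-box letters CANNTG, which read the same on both strands, in the RefSeq promoter table for GRCm38.p6. Of the 8 members, 5 matched an entry (Tcf3, Tcf12, Id2, Id3 and Id4, with 7 windows in all), and Scx, Tcf4 and Id1 did not. The windows of Id2 (chr12:25096093-25096342, minus strand), Id3 (chr4:136143572-136143821, plus strand) and Id4 (chr13:48260866-48261115, plus strand) are shown because their genes took different courses across the libraries, with E-box letters in capitals.
Id2: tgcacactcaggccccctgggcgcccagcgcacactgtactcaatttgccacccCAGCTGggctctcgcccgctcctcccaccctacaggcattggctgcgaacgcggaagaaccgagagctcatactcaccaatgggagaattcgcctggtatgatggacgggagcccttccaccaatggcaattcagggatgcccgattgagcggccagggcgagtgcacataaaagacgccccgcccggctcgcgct
Id3: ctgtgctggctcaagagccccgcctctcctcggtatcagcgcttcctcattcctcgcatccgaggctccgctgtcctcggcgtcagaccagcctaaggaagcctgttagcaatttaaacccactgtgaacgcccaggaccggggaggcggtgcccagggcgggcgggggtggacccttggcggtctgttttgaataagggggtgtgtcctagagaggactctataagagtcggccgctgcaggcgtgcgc
Id4: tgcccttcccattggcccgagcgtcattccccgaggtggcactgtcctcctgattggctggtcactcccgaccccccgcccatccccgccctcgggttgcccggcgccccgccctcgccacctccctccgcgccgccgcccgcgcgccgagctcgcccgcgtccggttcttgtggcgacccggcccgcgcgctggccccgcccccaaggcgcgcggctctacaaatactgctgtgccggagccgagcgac
The Id2 window holds 1 match, CAGCTG at 196 bases before the start, and those of Id3 and Id4 hold 0. Tcf3 has 1 match, and the 3 windows of Tcf12 have 1, 1 and 0. Over all 32851 windows of this length, 66.2% hold at least 1 match. A match is a description of letters and not a binding site, and 0 matches say only that the letters are not in the window.

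Id2, an Id gene known for its part in heart and lymphoid development (ENSMUSG00000020644, chromosome 12 of mm9 from 25778666 to 25780957), was at 33.6, 34.5 and 19.3 RPKM in Scx-/- replicates 1 to 3 and at 36.0, 15.9 and 24.8 RPKM in Scx+/+ replicates 1 to 3. Like the E-protein genes, it was lowest in Scx-/- replicate 3 and Scx+/+ replicate 2 within their genotypes. Both genotypes reached from under 20 to over 33 RPKM, with a mean ± SD of 3 libraries of 29.2 ± 8.54 RPKM in Scx-/- against 25.5 ± 10.1 RPKM in Scx+/+.

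Id3 (ENSMUSG00000007872, chromosome 4 of mm9 from 135699412 to 135701670) was at 14.8, 15.0 and 13.2 RPKM in Scx-/- replicates 1 to 3 and at 12.6, 20.0 and 12.6 RPKM in Scx+/+ replicates 1 to 3. Only Scx+/+ replicate 2 was clearly apart, and it was the highest of the 6. In that library alone Id3 passed Id2, with 40.4% of the summed Id RPKM against 32.0% for Id2.

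Id1, which BMP signalling induces in many cell types (ENSMUSG00000042745, chromosome 2 of mm9 from 152561987 to 152563146), was at 7.07, 5.28 and 9.29 RPKM in Scx-/- replicates 1 to 3 and at 6.29, 11.7 and 4.19 RPKM in Scx+/+ replicates 1 to 3. Its order of libraries within each genotype was that of Scx, with Scx-/- replicate 3 and Scx+/+ replicate 2 at the top, and the genotypes overlapped.

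Id4 (ENSMUSG00000021379, chromosome 13 of mm9 from 48356796 to 48359405) was at 1.88, 1.50 and 2.08 RPKM in Scx-/- replicates 1 to 3 and at 1.77, 2.02 and 1.11 RPKM in Scx+/+ replicates 1 to 3, on 126 to 206 reads. Scx+/+ replicate 3 was the lowest library and the other 5 lay close together. Id4 shares 171 exon bases with A330033J07Rik, a noncoding gene on the opposite strand, so that reads of the 2 genes may not have been told apart there.

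**Figure D1:**
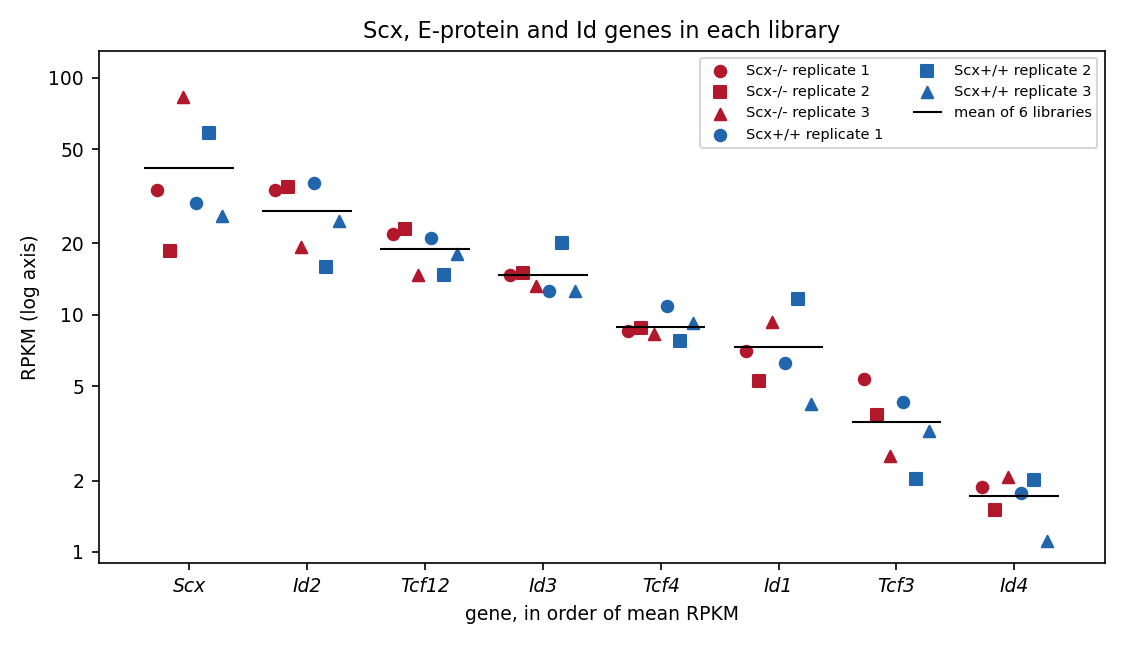
RPKM of each member in each library on a log axis, in order of mean RPKM over the 6 libraries (black lines), with Scx-/- in red and Scx+/+ in blue and a symbol for each replicate number. Scx spans 18.6 to 82.9 RPKM, more than the distance between its mean and that of several genes after it, while Tcf4 stays within 7.73 to 10.9 RPKM.

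Ordered by mean RPKM over the 6 libraries, the levels ran from Scx (41.5) through Id2 (27.3), Tcf12 (19.0), Id3 (14.7), Tcf4 (8.92), Id1 (7.30) and Tcf3 (3.54) to Id4 (1.73). Each of the 7 neighbouring pairs was compared within libraries by an exact permutation test that swaps the genes of a pair in each library, two-sided, for which the smallest possible p over 6 libraries is 0.0312. The log2 RPKM differed with the same sign in 6 of 6 libraries for 4 pairs, which were Id2 over Tcf12 by 0.48, Id3 over Tcf4 by 0.71, Id1 over Tcf3 by 1.03 and Tcf3 over Id4 by 1.00. Each of these had an exact p of 0.0312 and an adjusted p of 0.0547, so that 0 of the 7 pairs passed the threshold of 0.05 after adjustment over the pairs and 4 did before it. With splines on exon length and on GC content subtracted, Id2 over Tcf12 had an exact p of 0.0625, which leaves 3 before adjustment. Without Scx-/- replicate 3 and Scx+/+ replicate 2, Id1 was above Tcf3 by 0.45, and the other 3 differences were 0.60, 0.55 and 1.42 for Id2 over Tcf12, Id3 over Tcf4 and Tcf3 over Id4.

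The other 3 pairs did not differ with the same sign in 6 of 6 libraries. Scx was above Id2 in 3 of 6 libraries (mean log2 difference 0.48, SD 1.22, exact permutation test, adjusted p = 0.438), and Id2 was the highest member in Scx-/- replicates 1 and 2 and Scx+/+ replicate 1. Without Scx-/- replicate 3 and Scx+/+ replicate 2, Id2 was above Scx, and the mean log2 difference of Scx minus Id2 was -0.28. Tcf12 was above Id3 in 5 of 6 libraries (0.37, exact permutation test, adjusted p = 0.131) and Tcf4 above Id1 in 4 of 6 (0.36, exact permutation test, adjusted p = 0.255). Without both libraries these differences were 0.62 and 0.74, and with 1 library left out that of Tcf4 over Id1 ran from 0.21 without Scx+/+ replicate 3 to 0.56 without Scx+/+ replicate 2.

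By rank within each genotype, most members fell on either side of a shared pattern. Scx, Id1 and Id4 were each highest, within both genotypes, in Scx-/- replicate 3 and Scx+/+ replicate 2, which is 3 of the 8 members, where 14.3% of all genes do the same. Tcf3, Tcf4, Tcf12 and Id2 were each lowest in these libraries, which is 4 of the 8 members, where 24.7% of all genes do the same. Id3 was at neither end. These libraries were singled out after their values were seen, and the members' shares are given as a description. Rank takes no account of size. In Scx-/- replicate 3, Tcf4 was lowest at 8.30 RPKM against 8.57 and 8.78 in Scx-/- replicates 1 and 2. Id4 was highest there at 2.08 RPKM against 1.88 and 1.50.

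**Figure D2:**
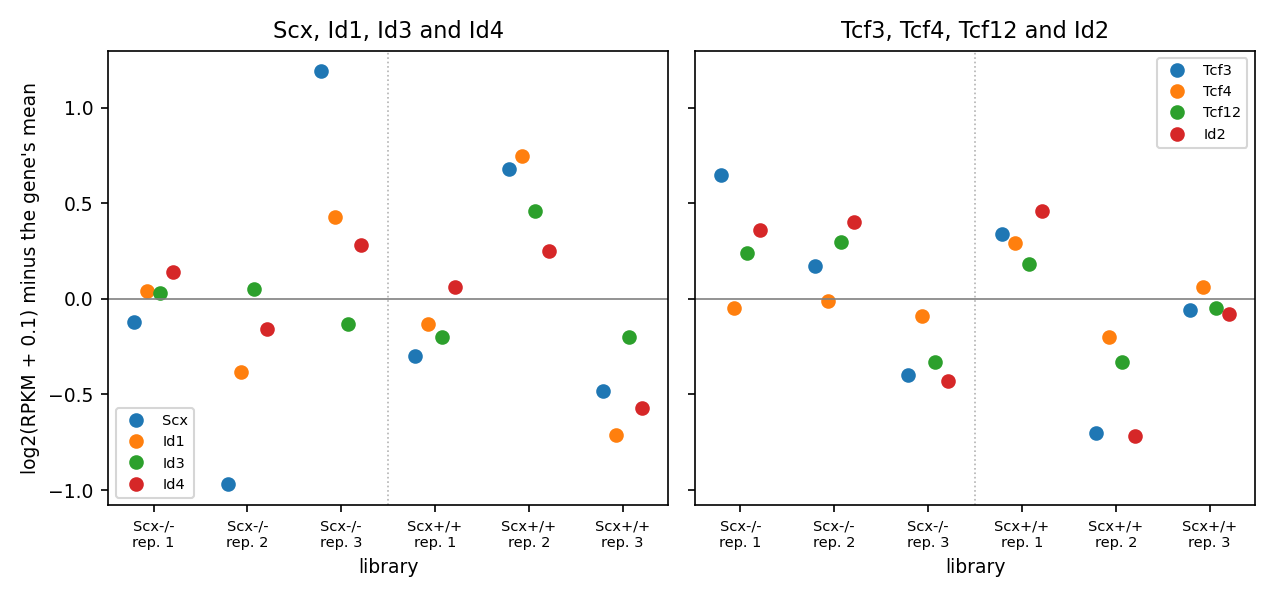
Log2(RPKM + 0.1) of each member in each library, minus the mean of the gene over the 6 libraries, with Scx-/- left and Scx+/+ right of the dotted line. Scx is 1.19 above its mean in Scx-/- replicate 3 and 0.68 above it in Scx+/+ replicate 2, where Tcf3 lies at -0.40 and -0.70 and Id2 at -0.43 and -0.72.

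Lists of other genes lay on both sides of this pattern or near the shares of all genes, 14.3% highest and 24.7% lowest in both libraries. Among the 10 cardiomyocyte markers, 5 were highest in Scx-/- replicate 3 and Scx+/+ replicate 2 within their genotypes and 0 lowest. Their summed RPKM was 22200, 18500 and 26800 in Scx-/- replicates 1 to 3 against 18700, 29300 and 16400 in Scx+/+ replicates 1 to 3, with Myl2 the most abundant. Within each genotype that is the same order of libraries as for Scx and Id1. Of the 4 skeletal muscle markers, Ckm was at 915 to 3020 RPKM. Within each genotype Ckm had the same order of libraries as the cardiomyocyte sum. The others did not exceed 0.671 RPKM, so that the list does not show whether skeletal muscle was present. Among the 4 markers, 3 (Ckm, Myh3 and Myh8) were highest in both Scx-/- replicate 3 and Scx+/+ replicate 2 and 0 lowest. Of 21 tendon and valve matrix genes that accompany Scx, 13 were lowest in them, where Scx was highest, and 4 highest. Of 15 identifiers of TGF-beta and FGF signalling 9 were lowest and 0 highest, of 8 coregulators of E-proteins 5 and 0, and of 8 endothelium markers 4 and 1. Lowest and highest were also 3 and 1 of 8 mesenchyme markers, 6 and 1 of 20 BMP and Smad1/5 genes, 2 and 1 of 9 tissue-restricted bHLH factors, 3 and 1 of 5 genes of Id turnover, 2 and 0 of 5 smooth muscle, 3 and 0 of 6 erythroid, 2 and 0 of 6 macrophage, 1 and 0 of 3 Schwann cell and neuron and 0 and 1 of 2 cartilage and tendon markers. Of the 7 epicardium markers, 3 were lowest and 0 highest, and the list, led by Tbx18, had sums of 35.5, 36.8 and 25.8 RPKM in Scx-/- replicates 1 to 3 against 28.2, 20.8 and 26.3 RPKM in Scx+/+ replicates 1 to 3. The part of cell makeup in the members' values was not tested.

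Summed over the family, the E-protein genes were at 36.0, 35.6 and 25.6 RPKM in Scx-/- replicates 1 to 3 and at 36.3, 24.6 and 30.6 RPKM in Scx+/+ replicates 1 to 3. The Id genes summed to 57.3, 56.3 and 43.9 RPKM in Scx-/- replicates 1 to 3 and to 56.6, 49.6 and 42.6 RPKM in Scx+/+ replicates 1 to 3. Summed Id RPKM thus exceeded summed E-protein RPKM in each library, by a ratio of 1.4 to 2.01 with the highest ratio in Scx+/+ replicate 2. RPKM is per base of all annotated exons of a gene, 4039 to 12250 bases for E-protein genes against 1160 to 1791 for Id genes. A ratio of transcripts may therefore differ. The ratio of Scx to the E-protein sum was 0.933, 0.521 and 3.24 in Scx-/- replicates 1 to 3 against 0.812, 2.37 and 0.850 in Scx+/+ replicates 1 to 3. Scx was above the whole E-protein sum only in Scx-/- replicate 3 and Scx+/+ replicate 2. Scx RPKM covers both exons, and the share of exon 1 in each library is not known here. The Scx ratios may therefore not count the same transcript in Scx-/- and Scx+/+. The Id and Scx ratios compare RNA levels and say nothing of the amounts of protein.

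**Figure D3:**
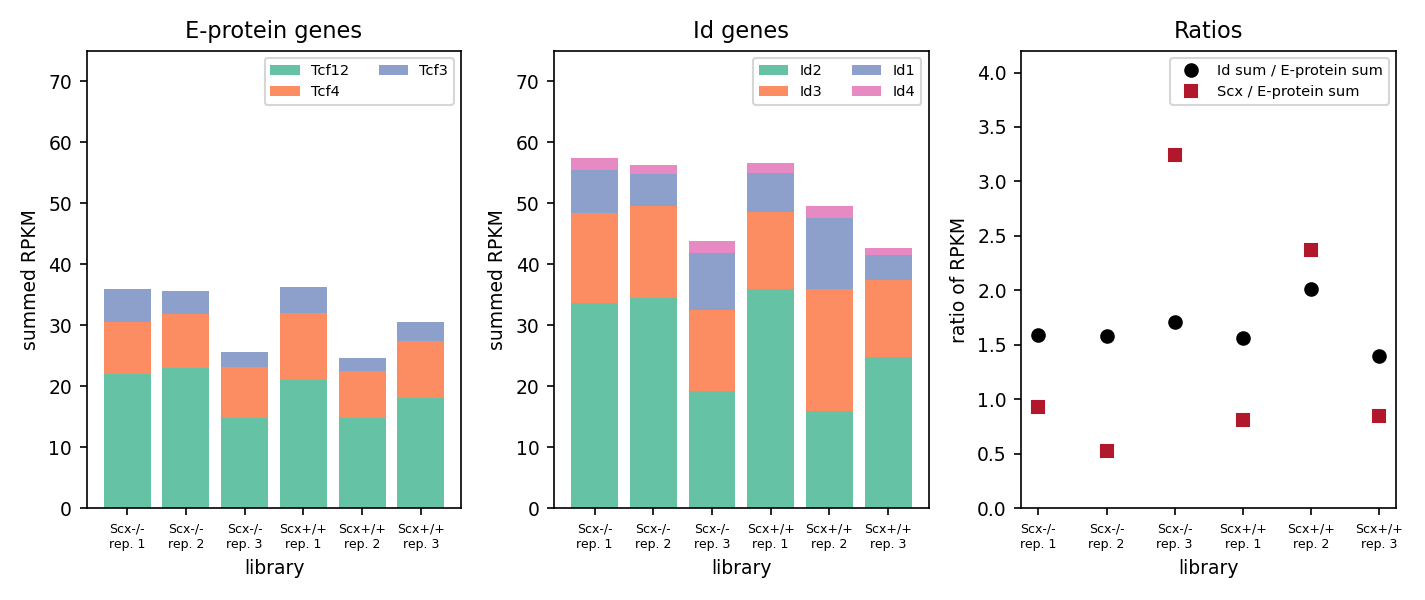
Summed RPKM of the E-protein genes and of the Id genes in each library as stacked bars, and the ratios of the Id sum and of Scx to the E-protein sum. The Id ratio lies between 1.4 and 2.01. The Scx ratio, from reads over both exons, reaches 3.24 in Scx-/- replicate 3 and 2.37 in Scx+/+ replicate 2. The Scx ratio is below 1 elsewhere.

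Between genotypes, none of the 8 members passed the test. Log2(RPKM + 0.1) values were compared with limma over all 18810 genes, and calls were made where the unadjusted p was below 0.05, the threshold of the study, with the Benjamini-Hochberg adjusted p given beside it. Of the members, 0 of 8 were called, where 3.89% of all genes (731) were, and 0 of 8 were at an adjusted p below 0.05, where 0.0% of all genes were. The libraries of the genotypes did not overlap for 0 of 8 members, against 9.5% of all genes (1787). Without moderation, 865 genes of the table were at an unadjusted p below 0.05 on log2 values, 1 of them after adjustment, and 848 on RPKM, 0 of them after adjustment, and again 0 of the 8 members in either test.

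The intervals show what differences in gene-level RPKM the 6 libraries leave possible. The Scx interval covers both exons together and sets no limit on a loss of exon 1 alone. Exon 1 holds 94.2% of the coding sequence, and a change in it was not tested here. For Scx the log2 fold change of Scx-/- over Scx+/+ was 0.07 (SE 0.51, 95% interval -1.08 to 1.22, adjusted p = 0.996 from limma), which spans 0.47-fold to 2.33-fold. It was -0.50 without Scx-/- replicate 3, 0.43 without Scx+/+ replicate 2, and -0.15 without both, and it also turned below 0 without Scx+/+ replicate 1 (-0.06) or Scx+/+ replicate 3 (-0.15). The narrowest intervals were those of Tcf4, at -0.10 (SE 0.19, 95% interval -0.54 to 0.33, adjusted p = 0.980 from limma), and Id3, at -0.04 (SE 0.22, 95% interval -0.53 to 0.45, adjusted p = 0.996 from limma). Without Scx-/- replicate 3 and Scx+/+ replicate 2, Tcf4 was at -0.21 and Id3 at 0.24. Tcf4 turned above 0 without Scx+/+ replicate 1 (0.01), and Id3 without Scx-/- replicate 3 (0.02) or Scx+/+ replicate 2 (0.18).

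The other E-protein and Id genes lay between 0.06 and 0.28 in log2 fold change. Tcf3 had 0.28 (SE 0.36, 95% interval -0.54 to 1.09, adjusted p = 0.967 from limma), and -0.0028 without Scx+/+ replicate 2. Id2 had 0.22 (SE 0.33, 95% interval -0.52 to 0.96, adjusted p = 0.971 from limma), and -0.08 without Scx+/+ replicate 2. Tcf12 at 0.14, Id4 at 0.18 and Id1 at 0.06 had intervals of -0.37 to 0.64, -0.57 to 0.92 and -0.78 to 0.89. Tcf12 was at 0.0046 without Scx+/+ replicate 2, Id4 at -0.07 without Scx+/+ replicate 3, and Id1 at -0.28 without Scx+/+ replicate 3 and -0.14 without Scx-/- replicate 3. Without Scx-/- replicate 3 and Scx+/+ replicate 2, Tcf3, Tcf12, Id1, Id2 and Id4 were at 0.27, 0.21, 0.25, 0.19 and 0.25.

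Fold changes above 0 were common in the table as a whole, with 63.8% of all genes above 0 and a median of 0.10. Of the 8 members, 6 were above 0, of which Scx and Id1 turned below 0 when the median log2 ratio of each library was set to 0 or the libraries were quantile normalized, and 4 were above the median of all genes. The median of the members was 0.10 as well.

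**Figure D4:**
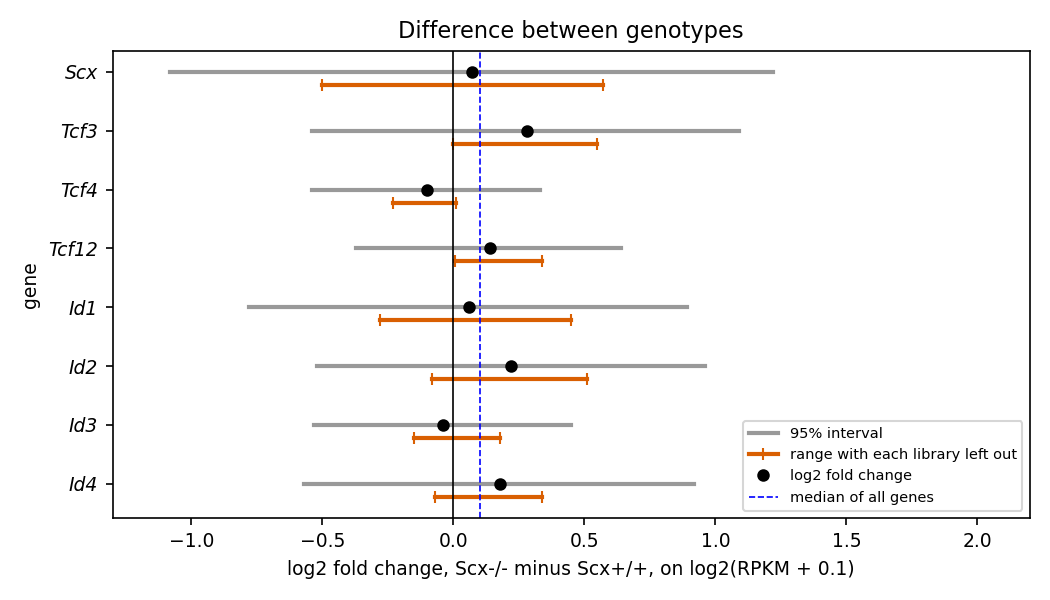
Log2 fold change of each member (black), its 95% interval (grey) and the range of the fold change when each library is left out in turn (orange), with the median of all genes at 0.10 as a dashed line. Every interval includes 0, and the widest, that of Scx, runs from -1.08 to 1.22.

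The genes whose courses over the 6 libraries were nearest to that of Scx were picked as a description, by the mean absolute difference in log2(RPKM + 0.1) after each gene was centred on its mean, among 13826 other genes that average 1 RPKM or more. They were the processed transcript Gm15543 (0.09), the lincRNAs C130080G10Rik and RP23-230H3.2 (0.15 each), Gstk1, a glutathione transferase (0.16), and Pparg, a nuclear receptor of fat cells (0.17). The 2 lincRNAs share 1001 exon bases and are not separate measurements. Gm15543 was at 7.68, 4.55 and 16.1 RPKM in Scx-/- replicates 1 to 3 and at 6.65, 13.5 and 5.49 RPKM in Scx+/+ replicates 1 to 3. Like Scx, these genes were highest in Scx-/- replicate 3 and Scx+/+ replicate 2. Of the members, Id1 was nearest to Scx (0.33, rank 288), ahead of Id4 (0.47) and Id3 (0.51), and Id2 was farthest (1.01, rank 12751).

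The genes around the network were described by lists, whose calls stand beside the 3.89% of all genes called. Of 31 other tissue-restricted bHLH factors that pair with E-proteins, 9 were in the table and 1 was called, Tcf21, a factor of epicardium and of the fibroblasts that derive from it. Tcf21 was at 8.61, 9.20 and 10.4 RPKM in Scx-/- replicates 1 to 3 and at 5.09, 7.38 and 6.56 RPKM in Scx+/+ replicates 1 to 3. Every Scx-/- library was above every Scx+/+ library, and the log2 fold change was 0.57 (SE 0.21, adjusted p = 0.967 from limma). The call was lost without Scx-/- replicate 2 (0.58), without Scx-/- replicate 3 (0.50) and without Scx+/+ replicate 1 (0.42). It was also lost with quantile normalization (0.46), with libraries brought to a median log2 ratio of 0 (0.46) and with splines on exon length and on GC content subtracted (0.43). Hand2 and Tcf15, the other abundant genes of the list, had log2 fold changes of -0.04 and 0.50. Hand2 was at 6.94 to 11.4 RPKM and Tcf15 at 1.63 to 3.31 RPKM. Scx, at 18.6 to 82.9 RPKM over both exons, was above each of the 9 listed genes in every library. The myogenic genes Myod1 and Myog were not among the rows.

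Coregulators that bind E-proteins and the enzymes and binders of Id turnover gave no calls. Of 8 coregulators in the table, led by Kat2b (14.7 to 20.5 RPKM), Ldb1 (5.61 to 10.4 RPKM) and Lmo2 (4.73 to 6.53 RPKM), 0 were called, with a median log2 fold change of -0.01. Without Scx+/+ replicate 2, and without both it and Scx-/- replicate 3, 2 coregulators were called, where 8.23% and 8.44% of all genes were. Kat2b, Ldb1 and Lmo2 had log2 fold changes of 0.13, 0.02 and 0.23. Of 5 genes of Id turnover, led by Cops5 (18.1 to 25.1 RPKM), Usp1, which encodes a deubiquitinase of Id proteins (16.2 to 23.7 RPKM), and Smurf2, a ubiquitin ligase (11.9 to 16.7 RPKM), 0 were called, with a median of 0.20.

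BMP signals through Smad1 and Smad5 to induce Id genes, and TGF-beta and FGF signals induce Scx. Of 20 BMP and Smad1/5 genes in the table, 1 was called, the type II receptor gene Bmpr2, where 3.89% of all genes were. Bmpr2 was at 12.7, 11.2 and 8.92 RPKM in Scx-/- replicates 1 to 3 and at 16.5, 12.2 and 24.7 RPKM in Scx+/+ replicates 1 to 3. Scx+/+ replicate 2 lay inside the Scx-/- range, and the log2 fold change was -0.65 (SE 0.27, adjusted p = 0.967 from limma). The call was kept without Scx+/+ replicate 2 and lost without any other library, with fold changes from -0.77 without Scx-/- replicate 1 to -0.39 without Scx+/+ replicate 3. It was also lost with the replicate number as a block and without a trend, both at -0.65, and without moderation. Bmpr1a (28.1 to 44.4 RPKM) and Smad4 (12.6 to 17.2 RPKM) were the other abundant genes of the list, at 0.21 and -0.13. Of 14 TGF-beta and FGF genes, with 15 identifiers, 0 were called. Tgfbr1, Smad2 and Tgfb2 were the most abundant, at 10.9 to 19.3, 11.3 to 16.3 and 6.09 to 9.75 RPKM, with log2 fold changes of 0.18, 0.20 and -0.12. The TGF-beta and FGF list had 1 gene called without Scx-/- replicate 1, Scx-/- replicate 3 or Scx+/+ replicate 1, where 3.07%, 4.36% and 5.33% of all genes were called.

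Of 21 tendon and valve matrix genes and factors that accompany Scx, 1 was called, where 3.89% of all genes were. This was Lum, a small leucine-rich proteoglycan that binds collagen fibrils. Lum was at 71.1, 122 and 83.8 RPKM in Scx-/- replicates 1 to 3 and at 53.4, 48.1 and 48.2 RPKM in Scx+/+ replicates 1 to 3. The genotypes did not overlap, the log2 fold change was 0.85 (SE 0.21, 95% interval 0.37 to 1.34, adjusted p = 0.967 from limma), and the call was kept with any 1 library left out, at 0.63 to 1.02. It was lost in the test of RPKM without moderation (0.89). Postn, Dcn and Col3a1, the most abundant genes of the list, were at 161 to 387, 113 to 172 and 100 to 153 RPKM, with log2 fold changes of 0.51, 0.40 and -0.03. The median of the list was -0.05, 5 of its 21 genes did not overlap between genotypes, where 9.5% of all genes did not. Its count of calls was 4 without Scx-/- replicate 1, where 3.07% of all genes were called, 6 without Scx+/+ replicate 2, where 8.23% were, and 4 without Scx-/- replicate 3 and Scx+/+ replicate 2, where 8.44% were.

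**Figure D5:**
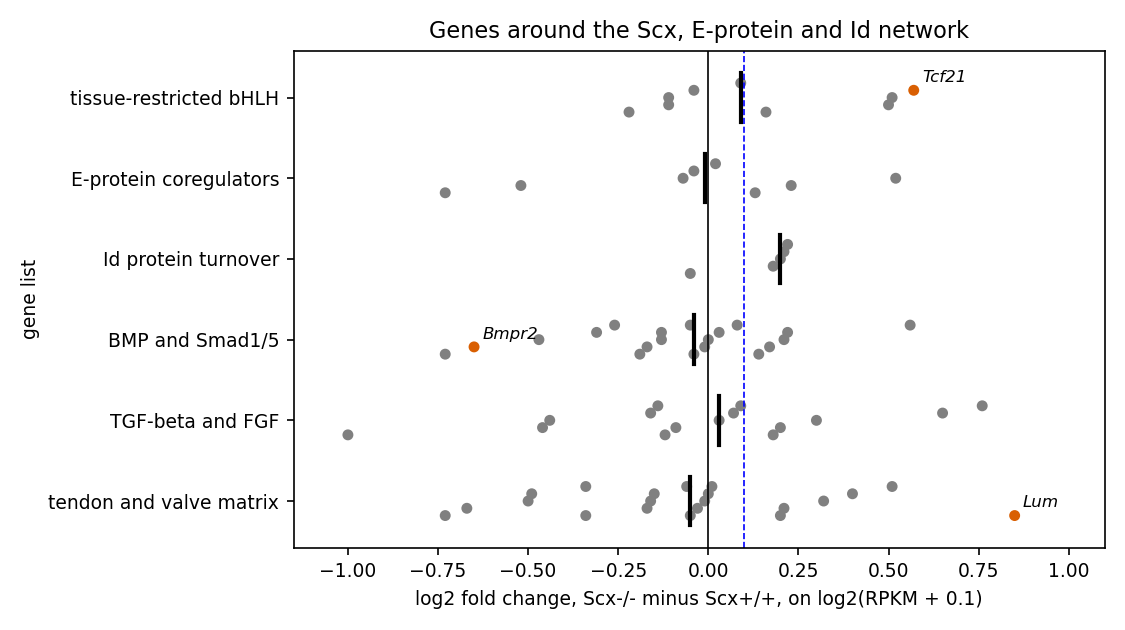
Log2 fold change of every gene of 6 lists around the network, with called genes in orange and named, list medians as black bars and the median of all genes at 0.10 as a dashed line. The called genes are Tcf21 at 0.57, Bmpr2 at -0.65 and Lum at 0.85, and the list medians lie between -0.05 and 0.20.

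Some marker lists held calls, where 3.89% of all genes were called. Of 10 cardiomyocyte markers 1 was called, Ryr2, lower in Scx-/- by a log2 fold change of -0.46 (adjusted p = 0.967 from limma). The cardiomyocyte list lay on both sides of 0, with a median of 0.08, and its most abundant genes, Myl2, Tnnt2 and Actc1, were at 0.22, 0.23 and 0.12. Of 7 epicardium markers 2 were called, Upk1b and Aldh1a2, higher in Scx-/- by 0.61 and 0.60 (adjusted p = 0.967 from limma for each). Of 6 macrophage markers 1 was called, Cd68, higher in Scx-/- by 1.48 (adjusted p = 0.967 from limma) with Scx+/+ replicate 2 at the common low value, or by 0.59 with a pseudocount of 1 RPKM and 1.82 with 0.01 RPKM. Each of these 4 calls was lost without at least 1 library, and the fold changes with 1 library left out were -0.60 to -0.36 for Ryr2, 0.48 to 0.77 for Upk1b, 0.41 to 0.70 for Aldh1a2 and 1.01 to 1.79 for Cd68. Of the 8 mesenchyme, 8 endothelium, 5 smooth muscle, 6 erythroid, 3 Schwann cell and neuron, 4 skeletal muscle and 2 cartilage and tendon markers in the table, 0 were called. Without Scx+/+ replicate 2, 2 mesenchyme markers were called (8.23% of all genes), without Scx-/- replicate 1, 1 mesenchyme and 2 endothelium markers (3.07% of all genes), without Scx-/- replicate 3, 1 smooth muscle marker (4.36% of all genes), and without Scx+/+ replicate 3, 1 erythroid marker (2.87% of all genes). With the replicate number as a block, the calls of Aldh1a2 (0.60) and Cd68 (1.48) were lost, and with splines on exon length and on GC content subtracted, those of Ryr2 (-0.30), Upk1b (0.43), Aldh1a2 (0.44) and Cd68 (1.35).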

How the data were processed

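The authors aligned the reads to mm9 with TopHat 1.4.1, as the submitters' processing notes name it, counted reads in Ensembl exons with easyRNASeq and deposited RPKM. By their methods, genes with few reads were dropped and low values replaced by a common value, found throughout the table. Identifiers were looked up in GENCODE vM1 of mm9 (18695 of 18810 found). RPKM times exon length fell within 0.1 of a whole read for 98.45% to 98.56% of values under 1000 reads, which gave the depth, and counts were not tested.

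Genotypes were compared on log2(RPKM + 0.1), a scale that understates the change of low genes, by limma 3.58.1 (R 4.3.3) with a trend on intensity and without covariates. The Benjamini-Hochberg adjustment was over 18810 genes, and the steps were tested on simulated data. No exact test of 3 libraries against 3 can reach a p below 0.1. Neighbouring levels were compared over 64 sign patterns. Alternatives were pseudocounts of 0.01 and 1, genes that average 1 RPKM or more, quantile normalization, a median log2 ratio of 0, no trend, log2 values or RPKM without moderation, a replicate block, sex, splines on exon length and on GC content subtracted, each library left out and, added after seeing the data, 2 libraries left out. Other steps used Python 3.11.15 (scipy 1.17.1, numpy 2.4.6, matplotlib 3.10.9, pandas 2.3.3).

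The members and lists were chosen with earlier results of these data known. The rule for named genes took the members, Bop1, called genes and the 3 most abundant genes of each list, and the 5 genes nearest to Scx. The abundant genes of several marker lists are left out of the text, and overlapping genes, Xist and the absent markers Tnmd, Myod1 and Myog are named outside the rule. Exon-level values and the study's rat cells and staining were not used here.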

Additional observations from a re-analysis of the deposited data

How the results depend on the processing

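The counts of members called and of members at an adjusted p below 0.05 were 0 under all 18 alternatives to the main limma fit. Over the 144 member fold changes this gave, 0 passed an unadjusted p of 0.05, the largest was 0.57 in size on the log2 scale, and 19 changed sign, each from a value whose 95% interval includes 0. Their cause was not tested.

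With 1 library left out at a time, the log2 fold change ran from -0.50 to 0.57 for Scx, -0.0028 to 0.55 for Tcf3, -0.23 to 0.01 for Tcf4, 0.0046 to 0.34 for Tcf12, -0.28 to 0.45 for Id1, -0.08 to 0.51 for Id2, -0.15 to 0.18 for Id3, -0.07 to 0.34 for Id4 and -0.52 to 0.02 for Bop1. In the same fits 539 to 1549 genes of the table were called, or 2.87% to 8.23%, the most without Scx+/+ replicate 2. Lists had 0 to 2 calls for tissue-restricted bHLH factors, coregulators, mesenchyme, endothelium and epicardium, 0 to 1 for BMP and Smad1/5, TGF-beta and FGF, cardiomyocytes, smooth muscle, erythroid cells and macrophages, and 1 to 6 for tendon and valve matrix.

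Leaving out Scx-/- replicate 3 and Scx+/+ replicate 2 together, chosen after seeing the data, gave -0.15 for Scx and 0.24 for Id3. It called 1587 genes of the table (8.44%). Among them were 2 tissue-restricted bHLH factors, 2 coregulators, 1 TGF-beta or FGF gene, 4 matrix genes, 2 cardiomyocyte markers and 1 epicardium marker. Quantile normalization gave -0.04 for Scx and -0.02 for Id1, and called 0 bHLH factors, 1 coregulator, 2 matrix genes, 2 endothelium markers and 1 epicardium marker. A median log2 ratio of 0 gave -0.04 for Scx and -0.05 for Id1, and called 0 bHLH factors, 1 coregulator, 1 TGF-beta or FGF gene, 2 matrix genes, 2 endothelium markers and 0 epicardium markers. Subtracting splines on exon length and on GC content gave -0.05 for Id1, and called 0 bHLH factors, 1 coregulator, 1 TGF-beta or FGF gene, 2 matrix genes, 1 mesenchyme marker, 1 endothelium marker, 0 epicardium markers and 0 macrophage markers. These last 3 settings moved the share of higher genes among all calls from 72.6% to 49.9%, 43.5% and 45.2%. They called 3.75%, 3.43% and 3.54% of the genes tested in each.

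Without moderation, RPKM gave -0.03 for Id1, 0 BMP genes, 2 matrix genes without Lum among them, 2 cardiomyocyte markers and 0 macrophage markers. The log2 values gave 0 BMP genes, 3 matrix genes, 1 mesenchyme marker, 2 cardiomyocyte markers, 0 macrophage markers and 1 gene of the table at an adjusted p below 0.05, against 0 in limma. Without a trend there were 0 BMP genes, 2 matrix genes and 0 cardiomyocyte markers. Sex as a covariate left 1 epicardium marker, and the filter at 1 RPKM left 0 macrophage markers. Without moderation, 4.51% of all genes were called on RPKM and 4.6% on log2 values. The share was 3.43% without a trend, 3.45% with sex as a covariate and 4.11% of the genes kept by the filter.

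Same-numbered libraries showed no common course. Their deviations from the genotype means correlated at 0.092, -0.22 and -0.188 over 13827 genes. Deviations from means of 3 libraries balance out within a genotype, so that these correlations cannot exclude a shared litter or batch. With the replicate number as a block, 573 genes (3.05%) were called against 731 (3.89%). Among them were 0 of the 8 members, 1 epicardium marker and 0 macrophage markers. The calls of Bmpr2 at -0.65, Aldh1a2 at 0.60 and Cd68 at 1.48 were lost with it.

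With 3 libraries a genotype, the intervals of the members reach from 0.47-fold to 2.33-fold for Scx and from 0.69-fold to 1.26-fold for Tcf4, and differences within them were not resolved. Id4 rests on 126 to 206 reads a library. The gene-level Scx value covers both exons, and Scx reads cannot be told apart from unspliced Bop1 reads if the counting ignored strand. Scx was at 18.6 to 82.9 RPKM, against 7.30 to 15.6 RPKM for the exons of Bop1. The share of unspliced Bop1 reads was not tested.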

Other observations

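The name Tcf4 has also been used for Tcf7l2, the Wnt effector that binds beta-catenin, which is not a bHLH gene. The table lists the 2 genes apart. Tcf7l2 (ENSMUSG00000024985, chromosome 19 of mm9 from 55816300 to 56008144) was at 0.582, 0.992 and 0.531 RPKM in Scx-/- replicates 1 to 3 and at 0.844, 0.348 and 0.741 RPKM in Scx+/+ replicates 1 to 3, with a log2 fold change of 0.13 (95% interval -0.93 to 1.20, adjusted p = 0.989 from limma). In every library it was far below the E-protein gene Tcf4, whose lowest value was 7.73 RPKM. Tcf7l2 was chosen for its name, outside the rule for named genes.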
